A study of Mus musculus with 13 samples.

Results

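Toll-like receptors are the membrane proteins with which innate immune cells sense microbial products and material released by damaged cells. The 10 genes described here, of 24421 in the count table, are the receptors Tlr1, Tlr2, Tlr3, Tlr4, Tlr6, Tlr7, Tlr8 and Tlr9, the co-receptor Cd14 and the adaptor Myd88. They were chosen by name with earlier results of these data in view, so their levels and fold changes are given as a description and the adjusted p-values below support no choice of members. All 10 had reads in every library, with counts between 64 and 7102, and all 10 passed the filter on low counts.

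RNA was sequenced from 13 tissue samples of female MMTV-HER2/neu mice, in which the rat HER2/Neu cDNA is driven in the breast epithelium by the promoter of the mouse mammary tumor virus long terminal repeat. All groups, the glands included, carried the transgene, and ages at sampling were not given in the sources used here. The 5 groups were cancer-free mammary glands of untreated mice (n = 2), primary tumors of untreated mice (n = 3), primary tumors of mice that drank stavudine at 1 mg/mL (n = 3), tumors that regrew after a complete response to 17-DMAG at 20 mg/kg (n = 3), and tumors that regrew in the same way under stavudine (n = 2). Stavudine is a nucleoside inhibitor of reverse transcriptase, and 17-DMAG inhibits the chaperone HSP90. Per the paper, 17-DMAG dosing went on while tumors regrew, up to the end point. Regrowth and exposure to 17-DMAG at sampling thus cannot be told apart in the comparisons with primary tumors. The comparisons ask how tumors differed from glands, how primary tumors with stavudine differed from those without it, and how regrown tumors differed from primary ones with and without stavudine. Each tumor library came from an individual tumor, and animals were not otherwise identified.

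The receptors fall into classes by where they meet their ligands. Tlr2 pairs with Tlr1 or Tlr6 at the cell surface to sense bacterial lipopeptides, and Tlr4 senses lipopolysaccharide with the help of Cd14 and Ly96. Tlr3, Tlr7, Tlr8 and Tlr9 sit in endosomes and sense nucleic acids, Tlr3 double-stranded RNA, Tlr7 and Tlr8 single-stranded RNA, and Tlr9 unmethylated CpG DNA. Myd88 carries the signal of all of them except Tlr3, which uses Ticam1, and Tlr4 uses both adaptors. Macrophages and dendritic cells are known for most of these receptors, B cells for several, and epithelial cells and fibroblasts for some, Tlr3 and Tlr4 among them.

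The genes lie in the mouse build GRCm38 at these positions of the GENCODE annotation. Tlr1 and Tlr6 are neighbors on chromosome 5, at chr5:64924679-64933563 and chr5:64952031-64960097. Tlr7 and Tlr8 are neighbors on the X chromosome, at chrX:167304929-167330558 and chrX:167242696-167264329. Tlr2 lies at chr3:83836272-83841767, Tlr4 at chr4:66827584-66930284, Tlr3 at chr8:45395665-45411080, Tlr9 at chr9:106222598-106226883 and Myd88 at chr9:119335934-119341411. Counts were per gene over its exons, so they do not separate isoforms.

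The promoters of Tlr2, Tlr9 and Myd88 are shown because these were the members that passed the test in the average of the 4 tumor groups against the glands. Each run is the minus or plus strand named, 5′ to 3′, from 250 bases before the RefSeq start toward the gene up to the start or the first annotated exon, from RefSeq sequence of GRCm38.p6. Capitals mark motif matches on either strand. The runs are 91, 250 and 227 bases long for Tlr2, Tlr9 and Myd88. The run of Myd88 lies inside the GENCODE span of the gene given above, so it precedes a RefSeq start within that span.
Tlr2, chr3:83841768-83841858, minus strand: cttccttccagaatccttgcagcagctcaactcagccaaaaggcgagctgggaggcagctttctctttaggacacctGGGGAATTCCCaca
Tlr9, chr9:106222348-106222597, plus strand: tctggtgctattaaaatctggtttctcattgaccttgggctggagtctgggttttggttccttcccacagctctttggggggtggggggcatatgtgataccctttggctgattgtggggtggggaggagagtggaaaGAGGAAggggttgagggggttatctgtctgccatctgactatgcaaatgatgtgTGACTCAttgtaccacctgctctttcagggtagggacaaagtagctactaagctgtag
Myd88, chr9:119340042-119340268, minus strand: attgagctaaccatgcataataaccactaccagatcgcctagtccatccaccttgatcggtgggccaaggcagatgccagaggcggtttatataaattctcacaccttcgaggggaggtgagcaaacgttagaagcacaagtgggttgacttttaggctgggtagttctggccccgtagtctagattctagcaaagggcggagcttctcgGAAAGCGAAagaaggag
The capitals in Tlr2 are overlapping matches to the NF-kB motif, those in Tlr9 a PU.1 core (GAGGAA) and an AP-1 site (TGANTCA), and those in Myd88 an interferon response core (GAAANNGAA). Of all 32851 promoters scanned, 7.25% held the NF-kB motif, 23.3% the PU.1 core, 6.75% the AP-1 site and 7.13% the interferon response core on either strand. RefSeq promoters were matched for 7 of the 10 members, with 9 start sites. Over these, the NF-kB motif was also found in Tlr3, the PU.1 core in Tlr1 and Tlr8, and the interferon response core in Tlr6 and Tlr8. A match is a description of the letters in this window and shows no binding.

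Library totals lay between 39921388 and 56887708 counts. Levels are given as CPM, the counts of a gene per 1e6 of the effective library size. That size is the library's counts over the genes that passed the filter times its TMM factor. TMM normalization scales each library so that most genes are level. Gland 2 had a factor of 0.493, and the factors of the other 12 ranged from 0.999 to 1.12. Markers of other cell types were not even across libraries, and their part in the results below was not tested. Gland 1 held summed B cell marker levels of 129 CPM against 2.32 in gland 2 and 0.479 to 1.57 in the 11 tumors, with no B cell marker at 0 in all tumors. T cell markers summed to 75.0 CPM in gland 1, 5.00 in gland 2 and 1.71 to 5.99 in the tumors. Gland 2 held milk protein transcripts at 537198 CPM, against 21078 in gland 1. The value of gland 2 is per its effective size of 28020809, not its total of 56887708, so it is not a share of its reads. Skeletal muscle markers were uneven too, at 1431 CPM in gland 2, 1282 in replicate 2 of the recurrent 17-DMAG plus stavudine tumors and 799 in replicate 1 of the primary untreated tumors. Among the tumors, replicate 1 of the recurrent 17-DMAG group stood apart with macrophage markers at 831 CPM and fibroblast markers at 3271 CPM. The other 10 tumors held macrophage markers between 187 and 497 CPM, the highest of them replicate 1 of the recurrent 17-DMAG plus stavudine group. Markers of adipocytes and of basal and myoepithelial cells were lower in all tumors than in both glands. Those of conventional dendritic cells, endothelium and fibroblasts overlapped. Endothelial markers summed to 235 and 250 CPM in the glands and 58.9 to 241 in the tumors, and fibroblast markers to 1197 and 1483 against 179 to 3271. Adipocyte markers summed to 643 and 759 CPM in the glands and 5.23 to 85.6 in the tumors, basal and myoepithelial markers to 303 and 892 against 19.3 to 185, and conventional dendritic cell markers to 11.7 and 35.9 against 4.98 to 12.3. Luminal epithelial markers, which define the labelled tissue, were present in all libraries, at 1351 to 1586 CPM in the glands and 1242 to 2662 CPM in the tumors. The sum hides Krt19, which was lower in the tumors, at 12 to 1771 counts against 4025 and 6571 in the glands.

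Levels of different genes are comparable only per length. Per kilobase of exon, the mean over the 11 tumors was highest for Cd14, at 22.1 CPM per kb, followed by Tlr3 at 15.9, Myd88 at 8.72, Tlr4 at 7.22 and Tlr2 at 5.44. Tlr6 followed at 2.50 CPM per kb, Tlr7 at 1.41, Tlr8 at 1.17, Tlr1 at 0.855 and Tlr9 at 0.617. Tlr3 was thus the leading receptor and Tlr9 the scarcest of the members. The ranges of all neighbors in this order overlapped. Within libraries the order was steadier for some neighbors than for others. Tlr3 was above Myd88, and Myd88 above Tlr4, in 11 of 11 tumors, whereas Cd14 was above Tlr3 in 4 of 11 and Tlr7 above Tlr8 in 8 of 11. The glands were ordered differently from each other, since gland 1 was led by Cd14 at 36.4 CPM per kb and gland 2 by Tlr2 at 58.7 CPM per kb.

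Levels of the members by library were as follows, beginning with the surface receptors. Tlr1 was at 15.0 and 2.43 CPM in the glands, 1.83, 1.73 and 2.83 in primary untreated tumors, 2.05, 3.39 and 1.71 in primary stavudine tumors, 6.72, 2.14 and 2.64 in recurrent 17-DMAG tumors, and 3.50 and 2.92 in recurrent 17-DMAG plus stavudine tumors. Only gland 1 and replicate 1 of the recurrent 17-DMAG tumors were above 3.50 CPM, and gland 2 lay within the tumors. Tlr2 was at 19.3 and 177 CPM in the glands, 16.2, 10.1 and 15.4 in primary untreated, 15.6, 13.3 and 18.9 in primary stavudine, 27.4, 20.7 and 18.0 in recurrent 17-DMAG, and 16.2 and 8.64 in recurrent 17-DMAG plus stavudine tumors. The high value belonged to gland 2, 9.15 times that of gland 1, and gland 1 lay inside the range of the tumors. Tlr4 was at 39.1 and 76.0 CPM in the glands, 32.0, 23.5 and 23.7 in primary untreated, 40.3, 37.7 and 41.8 in primary stavudine, 52.0, 49.0 and 44.5 in recurrent 17-DMAG, and 60.3 and 36.6 in recurrent 17-DMAG plus stavudine tumors. The 3 primary untreated tumors were the lowest of all 13 libraries for Tlr4. Tlr6 was at 11.9 and 18.5 CPM in the glands, 7.45, 13.4 and 11.01 in primary untreated, 5.76, 12.6 and 10.4 in primary stavudine, 6.46, 9.87 and 7.60 in recurrent 17-DMAG, and 10.8 and 7.20 in recurrent 17-DMAG plus stavudine tumors. The 4 tumor groups overlapped for Tlr6.

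The endosomal receptors were led by Tlr3. Tlr3 was at 67.0 and 149 CPM in the glands, 85.1, 108 and 95.5 in primary untreated, 79.1, 57.9 and 95.8 in primary stavudine, 52.9, 89.1 and 99.1 in recurrent 17-DMAG, and 80.0 and 66.0 in recurrent 17-DMAG plus stavudine tumors. Its lowest library was replicate 1 of the recurrent 17-DMAG tumors, the library with the highest macrophage and fibroblast markers. Tlr7 was at 13.3 and 5.92 CPM in the glands, 5.85, 3.85 and 5.51 in primary untreated, 4.54, 4.96 and 4.68 in primary stavudine, 12.2, 4.80 and 4.93 in recurrent 17-DMAG, and 8.15 and 4.08 in recurrent 17-DMAG plus stavudine tumors. Tlr8 was at 6.55 and 3.32 CPM in the glands, 3.05, 3.47 and 3.61 in primary untreated, 2.56, 2.92 and 3.29 in primary stavudine, 11.1, 2.64 and 3.34 in recurrent 17-DMAG, and 6.20 and 3.87 in recurrent 17-DMAG plus stavudine tumors. For both Tlr7 and Tlr8 the high tumors were replicate 1 of each recurrent group. Tlr9 was at 10.0 and 4.43 CPM in the glands, 1.39, 1.71 and 2.05 in primary untreated, 1.89, 2.26 and 1.98 in primary stavudine, 3.24, 1.43 and 1.64 in recurrent 17-DMAG, and 3.36 and 2.65 in recurrent 17-DMAG plus stavudine tumors. Tlr9 was the member for which both glands stood above all 11 tumors.

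Cd14 and Myd88 act beside the receptors, and Cd14 lies at chr18:36725067-36726798. Cd14 was at 63.1 and 90.4 CPM in the glands, 18.8, 36.0 and 18.9 in primary untreated, 14.9, 18.5 and 19.4 in primary stavudine, 60.5, 45.5 and 25.5 in recurrent 17-DMAG, and 139 and 23.3 in recurrent 17-DMAG plus stavudine tumors. Its range over the tumors was the widest of the members, with the highest tumor 9.34 times the lowest. Myd88 was at 28.7 and 39.9 CPM in the glands, 22.1, 17.6 and 16.3 in primary untreated, 20.0, 19.1 and 22.6 in primary stavudine, 26.0, 27.8 and 24.8 in recurrent 17-DMAG, and 28.7 and 22.1 in recurrent 17-DMAG plus stavudine tumors. The 3 recurrent 17-DMAG tumors lay above the 6 primary tumors for Myd88.

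**Figure D1:**
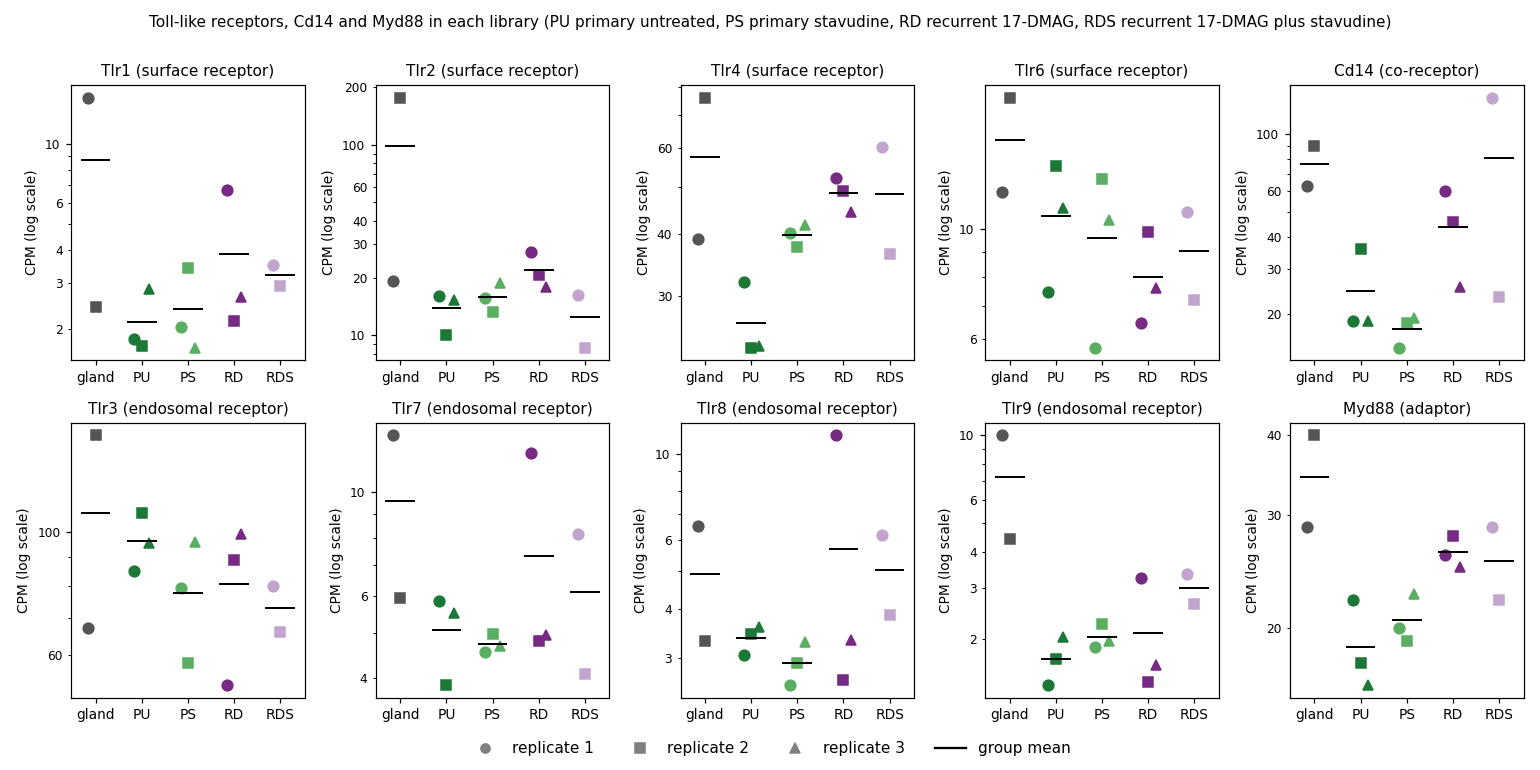
Level of each member in CPM on a log axis in the 13 libraries, by group, with the replicate number as the marker shape and the group mean as a black bar. The glands differed from each other, with Tlr2 at 19.3 and 177 CPM, and Tlr9 was above all tumors in both.

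Among the 11 tumors, 4 members (Tlr1, Tlr2, Tlr7 and Tlr8) were highest in replicate 1 of the recurrent 17-DMAG group. Another 4 (Tlr4, Tlr9, Cd14 and Myd88) were highest in replicate 1 of the recurrent 17-DMAG plus stavudine group. The exceptions, Tlr3 and Tlr6, were highest in replicate 2 of the primary untreated group. The 2 recurrent libraries named here had the 2 highest macrophage marker sums of the tumors, at 831 and 497 CPM. All 8 macrophage markers had reads in all 13 libraries. The part of macrophage RNA in the members' levels was not tested. Fewer cells of a type and less RNA per cell cannot be told apart in bulk tissue.

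**Figure D2:**
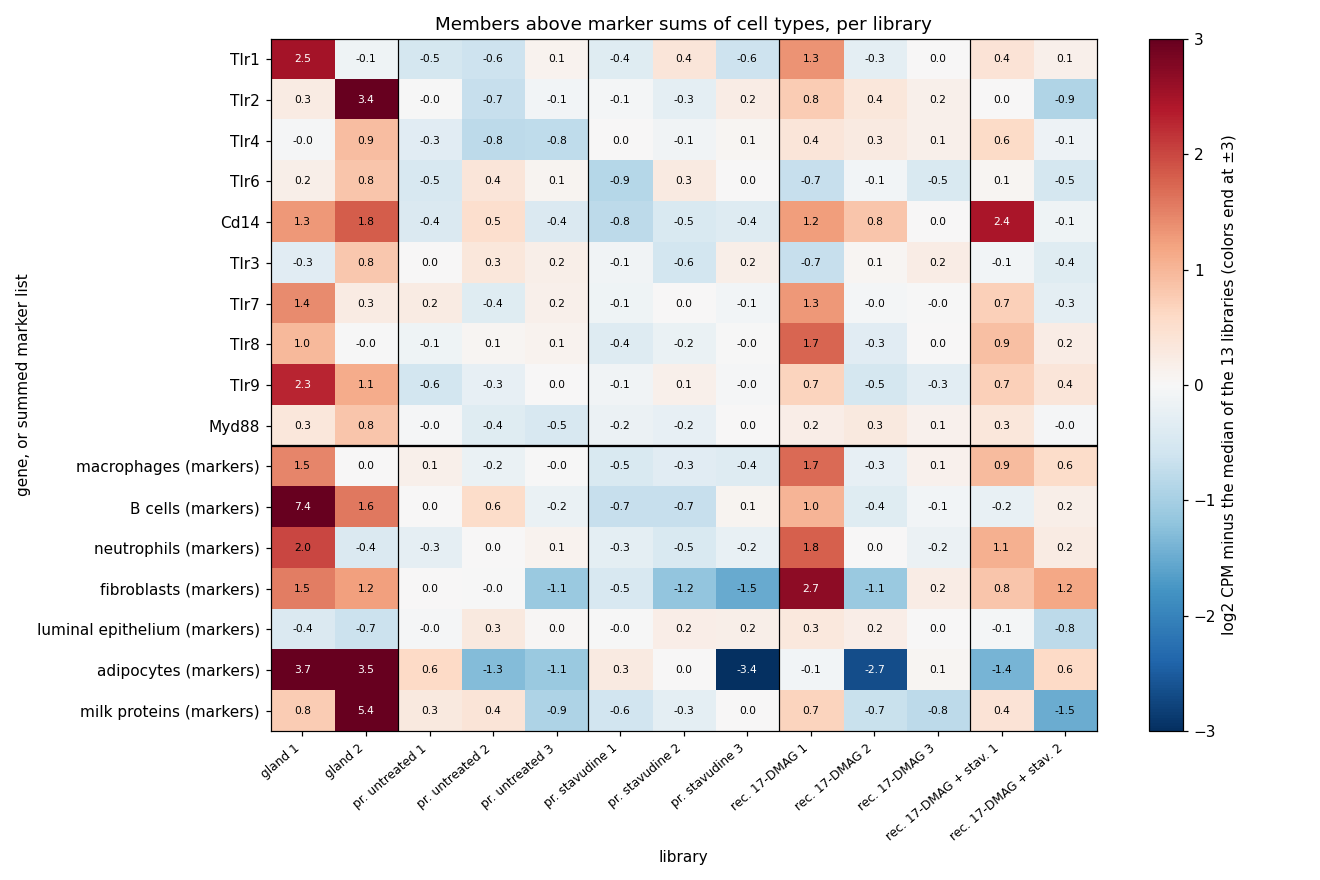
Each cell is the log2 CPM of a member, or of the summed markers of a cell type, minus the median of the 13 libraries, with red above and blue below it. Tlr1, Tlr7, Tlr8 and the macrophage markers were above their medians in gland 1 and in replicate 1 of both recurrent groups, whereas Tlr2 and the milk proteins were far above in gland 2.

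Against the glands, all 10 members had lower means in primary untreated tumors, and 2 fell in edgeR's quasi-likelihood test. Tlr9 fell by 2.07 (SE 0.44, log2 scale, adjusted p = 0.0468) and Myd88 fell by 0.88 (SE 0.20, adjusted p = 0.0496). Of all 17135 genes tested, 2.11% were called in this comparison. The gland and tumor ranges did not overlap, with the tumors lower, for 6 members (Tlr2, Tlr4, Tlr7, Tlr9, Cd14 and Myd88), where 20.4% of all genes behaved so. Tlr2 differed by -2.82 (SE 0.66, adjusted p = 0.056) and Tlr4 by -1.12 (SE 0.28, adjusted p = 0.0616), and neither passed the threshold. The median over the 10 members was -1.02, beside -0.02 over all genes. Tlr3 differed least, by -0.17 (SE 0.35).

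With the 4 tumor groups averaged, 3 members fell relative to the glands, a comparison that shares the glands and the primary untreated tumors with the one above. Tlr2 fell by 2.64 (SE 0.47, adjusted p = 0.00786), Tlr9 fell by 1.73 (SE 0.33, adjusted p = 0.0107) and Myd88 fell by 0.61 (SE 0.16, adjusted p = 0.0376). Of all genes, 10.4% were called. Tlr9 was the 1 member whose ranges did not overlap, beside 7.37% of all genes lower without overlap. All 10 differences were negative, with a median of -0.73, beside -0.02 over all genes. With limma voom, Tlr9 was the 1 member called in both comparisons with the glands, so that Tlr2 and Myd88 were not called by that tool. All 5 adipocyte, all 5 T cell and all 3 tested of 5 B cell markers fell in the averaged tumors too. So did 4 of 5 basal and myoepithelial markers, 4 of 5 conventional dendritic cell markers and 3 of 5 milk protein genes. Other marker lists had 1 called marker or 0, with 0 of the 8 macrophage markers called. The part of these markers in the members' differences was not tested.

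Which receptors stood out depended on the gland. Gland 1 was higher than gland 2 for Tlr1 by 6.17 times, Tlr7 by 2.24, Tlr8 by 1.97 and Tlr9 by 2.26. Gland 2 was higher for Tlr2, and also for Tlr3 by 2.23 times, Tlr4 by 1.94, Tlr6 by 1.55, Cd14 by 1.43 and Myd88 by 1.39. The 4 receptors higher in gland 1 thus included 3 of the 4 endosomal ones, and gland 1 also had the higher B cell, T cell and macrophage marker sums. All these ratios depend on the TMM factors, 0.493 for gland 2 and 1.12 for gland 1. Raw counts in gland 1 and gland 2 were 3314 and 4185 for Tlr3, 1937 and 2130 for Tlr4, and 588 and 517 for Tlr6. They were 3123 and 2534 for Cd14 and 1420 and 1119 for Myd88, against 957 and 4959 for Tlr2. Library totals were 44011982 and 56887708. Fold changes without gland 1 rest on the scaling of gland 2 too. Without gland 2, Tlr2 differed between the averaged tumors and the remaining gland by -0.22 (adjusted p = 0.818), Myd88 by -0.27 (adjusted p = 0.572), Tlr9 by -2.12 (adjusted p = 0.0128) and Tlr1 by -2.33 (adjusted p = 0.0302). Without gland 1, Tlr2 differed by -3.46 (adjusted p = 4.53e-05), Tlr4 by -0.90 (adjusted p = 0.0195), Myd88 by -0.79 (adjusted p = 0.0156), Tlr9 by -0.99 (adjusted p = 0.104) and Tlr1 by 0.25 (adjusted p = 0.803). In primary untreated tumors against a single gland, Tlr9 was at -2.45 (adjusted p = 0.0316) without gland 2 and -1.33 (adjusted p = 0.0711) without gland 1, and Myd88 at -0.53 (adjusted p = 0.282) and -1.06 (adjusted p = 0.0102). Each of the called members thus lost its call without 1 gland or the other. The 2 calls in primary untreated tumors were also lost without any 1 of 10 tumors, the exception being replicate 1 of the recurrent 17-DMAG group. In the averaged tumors, Tlr2 and Tlr9 kept their calls without any single tumor, and Myd88 kept its call without 3 of the 11.

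In primary tumors, none of the members was called by edgeR with stavudine against none, DESeq2 called 0 of them, and 1 had an unadjusted p below 0.05. Of the 16870 genes tested, 0% were called. Tlr4 was at 37.7 to 41.8 CPM with stavudine and 23.5 to 32.0 without it, the 1 member without overlap, where 5% of all genes were higher without overlap. Its difference was 0.58 (SE 0.19), with an unadjusted p of 0.0122 and an adjusted p of 1.00. The other members differed by -0.50 to 0.24, with 5 of the 10 positive. The median was 0.01 over the members and -0.03 over all genes.

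Recurrent 17-DMAG tumors had higher means than primary untreated tumors for 8 of the 10 members. None passed edgeR's test, where 0% of all genes were called, 3 had an unadjusted p below 0.05, and DESeq2 called 1, Tlr4. Tlr4 differed by 0.86 (SE 0.19, unadjusted p = 0.00124, adjusted p = 0.509), which is from 26.4 ± 4.82 to 48.5 ± 3.80 CPM (SD, n = 3 and 3). Tlr2 differed by 0.65 (SE 0.28, adjusted p = 0.510) and Myd88 by 0.47 (SE 0.15, adjusted p = 0.509). These 3 members were higher without overlap, beside 7.65% of all genes. Tlr1, Cd14 and Tlr8 differed by 0.83, 0.82 and 0.74 with standard errors of 0.47 to 0.57, and Tlr3 and Tlr6 by -0.28 and -0.43. The median was 0.58 over the members and -0.01 over all genes.

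Much of the difference in the scarcer receptors lay in a single tumor. Without replicate 1 of the recurrent 17-DMAG tumors, Tlr1 differed by 0.18, Tlr7 by -0.06, Tlr8 by -0.17 and Tlr9 by -0.15, and Cd14 by 0.54. Tlr4, at 0.83, Myd88, at 0.50, and Tlr2, at 0.49, kept their direction without it. All 8 macrophage and all 5 fibroblast markers were also higher in this comparison, with sums of 216 to 831 and 236 to 3271 CPM in recurrent 17-DMAG tumors against 223 to 284 and 238 to 511 in primary untreated tumors, so that the sums overlapped.

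Under stavudine, recurrent tumors had higher means than primary tumors for 7 of the 10 members. None passed edgeR's test, where 0% of all genes were called, and 1, Cd14, had an unadjusted p below 0.05 and was called by DESeq2. Cd14 differed by 2.21 (SE 0.63, unadjusted p = 0.0061, adjusted p = 0.336). It was at 23.3 and 139 CPM in recurrent tumors, above the 14.9 to 19.4 CPM of the primary tumors. Tlr8 differed by 0.79 (SE 0.54) and Tlr9 by 0.56 (SE 0.39), and these with Cd14 were the 3 members higher without overlap, beside 17.4% of all genes. All 8 macrophage markers and all 5 fibroblast markers were higher in the recurrent tumors of this comparison, and none passed the test. Macrophage markers summed to 381 and 497 CPM in them against 187 to 203 in the primary tumors, and fibroblast markers to 903 and 1147 against 179 to 364, and their part in the members' differences was not tested. With 2 recurrent tumors, each value depended on which tumor was kept. Without replicate 1 the difference of Cd14 was 0.40 and that of Tlr4 -0.14, and without replicate 2 these were 2.98 and 0.59. The fit without 1 of the recurrent tumors assumes that the lone one varies like the other groups.

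Between the recurrent groups, Tlr2 with stavudine differed from that without it by -0.82 (SE 0.32, unadjusted p = 0.0298, adjusted p = 0.577). The ranges of Tlr2 did not overlap, where 10.5% of all genes were lower without overlap and 0% were called. It was the 1 member with an unadjusted p below 0.05, and DESeq2 called 0 members. Tlr4 differed by 0.01 (SE 0.21), Myd88 by -0.04 (SE 0.17) and Cd14 by 0.89 (SE 0.62). Cd14 was at -0.92 without replicate 1 of the recurrent 17-DMAG plus stavudine tumors and 1.66 without replicate 2, and Tlr2 at -1.36 and -0.44. The difference between the effects of regrowth with and without stavudine was -1.01 for Tlr2 (SE 0.42, unadjusted p = 0.0402, adjusted p = 0.618), the 1 member with an unadjusted p below 0.05, and was -1.57 and -0.66 without the same tumors in turn. No member was called in that test by edgeR or DESeq2, where edgeR called 0% of all genes.

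Averaged over both arms, regrown tumors differed from primary tumors by 1.51 for Cd14 (SE 0.42, adjusted p = 0.287), 0.57 for Tlr4 (SE 0.14, adjusted p = 0.287) and 0.39 for Myd88 (SE 0.11, adjusted p = 0.289), with 0% of all genes called. These 3 were the members with an unadjusted p below 0.05, and DESeq2 called Cd14 and Tlr4. Without replicate 1 of the recurrent 17-DMAG plus stavudine tumors, Cd14 differed by 0.62, Tlr4 by 0.38 and Myd88 by 0.30. The contrast shares its tumors with both regrowth comparisons above.

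**Figure D3:**
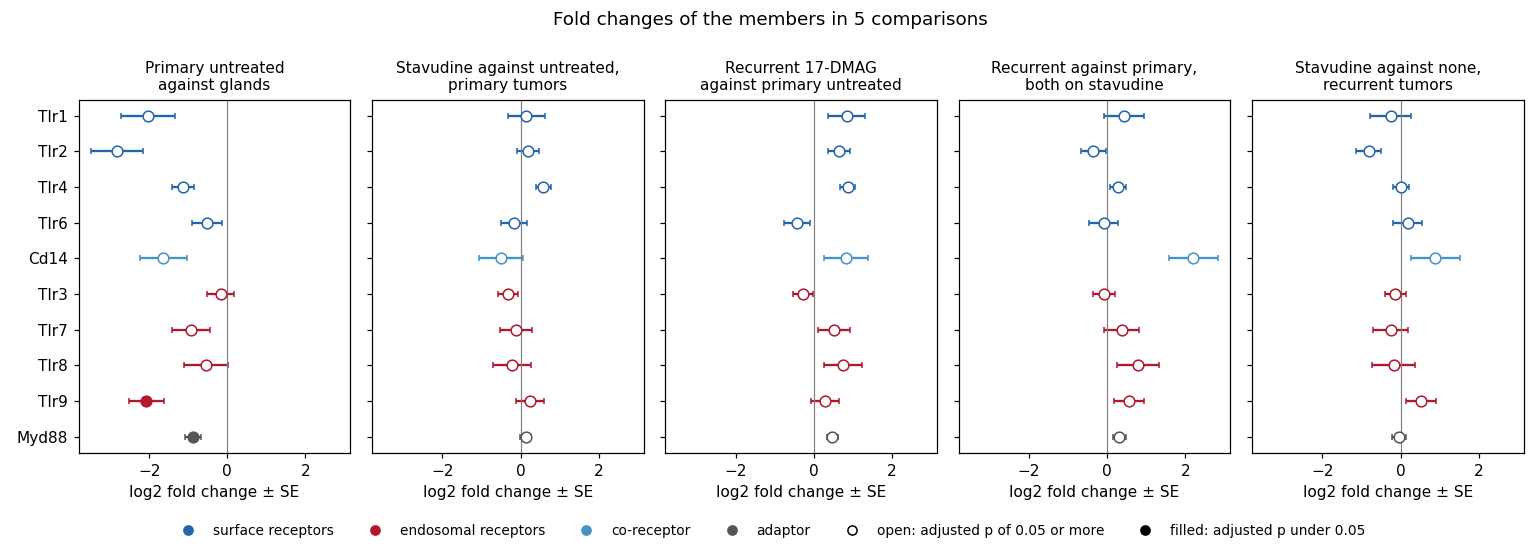
Log2 fold change of each member with its standard error in 5 comparisons, colored by class, with filled points for an adjusted p under the threshold. Tlr9 and Myd88 are filled in the comparison of primary untreated tumors with glands, and no point is filled between tumor groups, where Cd14 under stavudine is the farthest from 0 at 2.21.

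Surface and endosomal receptors were then compared within each library, as the mean log2 CPM of Tlr1, Tlr2, Tlr4 and Tlr6 minus that of Tlr3, Tlr7, Tlr8 and Tlr9. CPM here is not per kilobase, so the difference compares libraries and does not rank the classes by level. By summed CPM per kb, replicate 2 of the primary untreated tumors held 11.7 for surface and 23.2 for endosomal receptors. Gland 2 held 78.1 and 32.3, so the order of the classes differed between libraries. The difference was 0.427, 0.283 and 0.379 in primary untreated tumors and 0.519, 0.866 and 0.563 in primary stavudine tumors. It was 0.351, 0.923 and 0.640 in recurrent 17-DMAG tumors and 0.360 and 0.312 in recurrent 17-DMAG plus stavudine tumors. Gland 1 was at 0.301 and gland 2 at 1.38. Gland 2 was the library most shifted to the surface class, and the other 12 lay between 0.283 and 0.923.

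Group means were 0.363 ± 0.0732 in primary untreated, 0.649 ± 0.189 in primary stavudine and 0.638 ± 0.286 in recurrent 17-DMAG tumors (SD, n = 3 each), and 0.336 in recurrent 17-DMAG plus stavudine tumors (n = 2). The spread pooled over all 5 groups was an SD of 0.322, to which the pair of glands added most, and over the 4 tumor groups it was 0.188. Stavudine against none in primary tumors gave 0.29, recurrent 17-DMAG against primary untreated 0.27, recurrent against primary under stavudine -0.31, and stavudine against none in recurrent tumors -0.30. All 4 were larger than the SD of the tumor groups and smaller than that of all 5. Each was smaller than the SD of the tumor groups under some other setting. Primary stavudine tumors lay above primary untreated tumors without overlap, and above recurrent 17-DMAG plus stavudine tumors without overlap, whereas recurrent 17-DMAG tumors overlapped both of the groups they were compared with. No test was run on this difference. Primary untreated tumors against glands gave -0.48, which was 0.0627 without gland 2 and -1.02 without gland 1.

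The classes were not uniform inside. By summed level per kilobase, Tlr3 made up 59.1% of the endosomal receptors in replicate 1 of the recurrent 17-DMAG tumors and 61.8% in gland 1. In the remaining 11 libraries its share ran from 76.6% to 89.7%. Without Tlr3 the endosomal sum was 7.02 and 7.95 CPM per kb in those 2 libraries, against 2.32 to 4.69 in the others. The 2 libraries with the lowest share of Tlr3 were those with the highest macrophage markers, at 831 and 710 CPM. On the surface side, Tlr2 and Tlr1 went opposite ways between the glands.

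**Figure D4:**
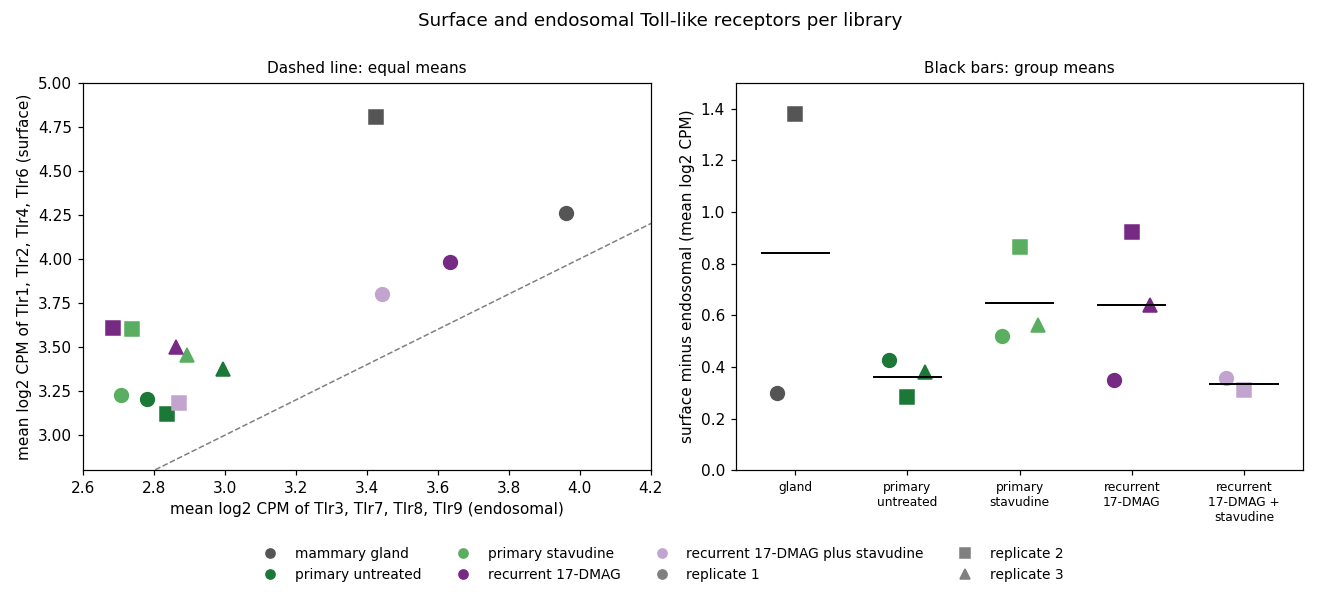
Left, mean log2 CPM of the 4 surface receptors against that of the 4 endosomal receptors in each library, with the dashed line at equal means. The values are not corrected for gene length, so the side of the line does not rank the classes. Right, their difference by group, with the group mean as a black bar, where gland 2 is highest at 1.38 and the tumor libraries lie between 0.283 and 0.923.

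The other genes of the pathway were read from fixed lists. Of the 4 further Toll-like receptors, Tlr5, the sensor of flagellin, fell by 1.66 in primary untreated tumors against glands (SE 0.34, adjusted p = 0.0457), from 21.5 and 34.5 CPM to 6.81 to 10.8. It was at 12.96 to 21.8 CPM in primary stavudine, 14.7 to 15.4 in recurrent 17-DMAG and 4.75 and 10.1 in recurrent 17-DMAG plus stavudine tumors. Tlr13, an endosomal sensor of bacterial ribosomal RNA, lay between 5.22 and 18.4 CPM in the tumors, Tlr12 between 1.04 and 3.34, and Tlr11 at 0 to 0.479 CPM, which is 0 to 22 counts per library. A count of 0 allows up to 3 counts, and this floor covers counting error only.

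Of 5 further adaptors, none was called by edgeR in any of the 8 comparisons. Tirap, which bridges Tlr2 and Tlr4 to Myd88, lay at 39.2 to 228 CPM in primary untreated tumors and 32.6 to 58.0 in the other tumor groups. Ticam1, the adaptor of Tlr3 and Tlr4, was at 35.4 to 41.7 CPM in primary untreated and 27.6 to 40.6 in primary stavudine tumors. It was at 24.9 to 34.7 in recurrent 17-DMAG and 16.6 and 24.0 CPM in recurrent 17-DMAG plus stavudine tumors. Recurrent against primary under stavudine, it differed by -0.79 (SE 0.23, adjusted p = 0.336). Of 5 accessory proteins, Ly96, the partner of Tlr4 that binds lipopolysaccharide, was scarce, at 2.30 to 4.42 CPM in the tumors and 3.60 and 6.50 CPM in the glands. Cd180, a relative of Tlr4 known from B cells, fell by 1.83 in the averaged tumors against glands (adjusted p = 0.0278). It was at 22.4 CPM in gland 1, 4.07 in gland 2 and 2.51 to 5.69 in the tumors, so that gland 2 lay inside the range of the tumors.

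Nucleic acid receptors reach endosomes with the help of Unc93b1, and most Toll-like receptors are folded by Hsp90b1, a chaperone of the HSP90 family in the endoplasmic reticulum. Unc93b1 was at 34.9 to 46.5 CPM in primary untreated, 35.1 to 47.8 in primary stavudine, 39.8 to 50.3 in recurrent 17-DMAG and 55.7 and 56.5 in recurrent 17-DMAG plus stavudine tumors. Hsp90b1 was at 929 to 1664 CPM in primary untreated, 1042 to 1186 in primary stavudine, 931 to 1190 in recurrent 17-DMAG and 531 and 668 CPM in recurrent 17-DMAG plus stavudine tumors. The last group lay below the primary stavudine tumors without overlap, where 17.9% of all genes were lower without overlap. Hsp90b1 differed between these groups by -0.91 (SE 0.27, adjusted p = 0.339). Of the 9 genes of folding and trafficking, none was called between tumor groups, and 1, the protease Ctsb, fell in the averaged tumors against the glands.

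Downstream of the receptors, Nfkbia, the inhibitor that NF-kB itself induces, fell by 1.34 in primary untreated tumors against glands (SE 0.24, adjusted p = 0.0369) and by 1.27 in the averaged tumors (adjusted p = 0.00356). Irf8, a transcription factor of myeloid and B cells, fell by 1.67 (adjusted p = 0.0254) and S100a9, an alarmin of neutrophils and a ligand of Tlr4, fell by 3.31 (adjusted p = 0.0313) in the averaged tumors. Irf8 was at 42.7 and 10.7 CPM in the glands and 4.84 to 15.1 in the tumors, with gland 2 inside their range. S100a9 had few reads, at 2.75 and 0.286 CPM in the glands and 0.0422 to 1.83 in the tumors, with gland 2 inside their range. Of 14 listed induced cytokines and effectors, 11 were tested. Of these, 10 were higher in recurrent 17-DMAG than in primary untreated tumors, with a median of 0.81. None passed edgeR's test and 2 had an unadjusted p below 0.05. Under stavudine the median was -0.60, with 3 of 11 positive, and again none passed, with 0 at an unadjusted p below 0.05. In all, 8 of the 66 listed genes of the pathway fell in the averaged tumors against glands and 0 rose. The 66 include the untested cytokines and effectors. Of all 17135 genes tested there, 1510 fell and 275 rose, together 10.4%. No gene of the lists was called by edgeR between tumor groups, where 0% of all genes were.

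The genes most like each member over the 11 tumors were named by Pearson's r of log2 CPM among 12691 genes, as a description. Tlr8 was most like Cd53, Nckap1l and C1qb, at r = 0.98 each, and C1qb is one of the macrophage markers. Tlr1 was like March1 and Rgs10, at 0.97 and 0.96, and Tlr7 most like P3h1, Aif1 and 6330416G13Rik, at 0.93 to 0.94. Aif1 is known from macrophages, and P3h1 modifies collagen. Without replicate 1 of the recurrent 17-DMAG tumors these values were 0.93 to 0.95 for the genes of Tlr8, 0.89 to 0.92 for those of Tlr1 and 0.83 to 0.87 for those of Tlr7.

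The remaining members had other neighbors. Cd14 was most like Stat3, Cx3cr1 and Mvp, at 0.92 to 0.96, and Stat3 encodes a transcription factor activated by several cytokine receptors. Tlr3 was most like Keap1, Dsg2 and Tecr, at 0.92 to 0.94, of which Dsg2 is a desmosomal cadherin of epithelia and Keap1 the sensor of oxidative stress. Tlr2 was most like Plch1, Bzw2 and Rbl1, at 0.95 to 0.99, Tlr4 most like Btbd11, Trim6 and Cnot6, at 0.92 to 0.93, and Tlr6 most like Marf1, Igf2bp3 and Peli3, at 0.91 to 0.93. Tlr9 was most like Mrpl19, Rexo4 and Gpr183, at 0.89 to 0.90, and Myd88 most like Aldh1l2, Syt15 and Cyp4v3, at 0.93 to 0.94. The points share library and depth, and with 12691 genes compared over 11 points these values carry no test.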

How the data were processed

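Total RNA of 11 individual tumors and 2 mammary glands was sequenced by the authors as ribosomal-RNA-depleted, dUTP-stranded libraries. Per the labels, reads were handled with bcl2fastq 2.20, STAR, featureCounts and Subread 1.6.2 on mm10 (GRCm38) with a UCSC annotation. The strand setting of the counting and the handling of multiply mapped reads were not given in the sources used here. The deposited values are raw counts per gene, not normalized, at 39921388 to 56887708 counts per library. No column of another sample was present (0 unmapped columns).

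Genes were filtered with filterByExpr and tested with edgeR 4.0.16 (quasi-likelihood, TMM, robust dispersion, 2-sided, Benjamini-Hochberg over all genes tested, threshold 0.05) in R 4.3.3, with 1 mean per group. The 13 libraries (17135 genes) gave the comparisons with glands and the 11 tumors (16870 genes) those between tumor groups. A standard error is the fold change divided by the square root of F. Mean log2 CPM used a prior count of 2, and levels per kilobase used the exon union of GENCODE M21, which differs from the authors' annotation, so that these levels are approximate. Replicates are individual tumors or glands, and whether each came from a separate mouse was not stated, so p-values measure only the spread between these samples.

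Named genes were all 10 members, Tlr5, Tlr11, Tlr12, Tlr13, Tirap, Ticam1, Ly96, Unc93b1 and Hsp90b1, the called pathway genes (at most 3 rises and 3 falls per contrast) and, for likeness, the 3 genes with the highest r per member among genes whose log2 CPM averaged 1 or more over the tumors. For Tlr1, 1 of these is not reported here. Ctsb was named outside this rule, after its values were seen. The members and lists were chosen with earlier results of these data known. Of the 142 listed symbols 141 were in the table. The fits were tested on simulated data. Alternatives were DESeq2 1.42.0, limma 3.58.1 (voom), RLE normalization, no filter, no milk protein genes, only the groups compared, a replicate block, and leaving out each library. Counts of transposable elements were not used here.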

Additional observations from a re-analysis of the deposited data

How the results depend on the processing

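Of the members' fold changes, 530 of 530 moved by less than 1 SD of the replicates under a setting other than leaving out a library, and 10 changed sign, the largest of these 0.18 in size. With 1 library left out, 886 of 920 did so and 48 changed sign. The largest of these was 1.63 in size, for Tlr1 in the averaged tumors against glands. This SD was pooled over all 5 groups, the glands included. It is a loose measure between tumor groups for members whose glands differed widely, as Tlr1 (SD 0.846) and Tlr2 (SD 0.873). The number of members called between primary untreated tumors and glands was 2 and became 5 with DESeq2, 1 with limma voom, and 0 with no filter on low counts, with only the groups compared, or with the replicate block. It was 0 to 4 with 1 library left out. In the averaged tumors against glands it was 3 and became 1 with limma voom and 0 with the replicate block, and was 2 to 4 with 1 library left out. DESeq2 called 1 member in recurrent 17-DMAG against primary untreated (Tlr4, adjusted p = 0.0245), 1 in recurrent against primary under stavudine (Cd14, adjusted p = 0.0298) and 2 over both arms (Tlr4, adjusted p = 0.0268, and Cd14, adjusted p = 0.0210), where edgeR called none.

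Over all genes, the 361 called between primary untreated tumors and glands became 2336 with DESeq2, 4 with the replicate block, 0 with only the groups compared, and 0 to 3381 with 1 library left out. The 1785 of the averaged tumors became 3238, 371 with the block, and 535 to 4255. Between tumor groups, where edgeR called 0, DESeq2 called 17, 67, 327, 258, 406 and 186 in the order of primary stavudine, recurrence, recurrence under stavudine, stavudine in recurrence, both arms and interaction. Leaving out a library gave 0 to 141 there. Deviations from the group mean correlated between same-numbered libraries of different groups with a mean r of -0.03 over 23 pairs (-0.29 to 0.22). Over 44 other pairs the mean r was 0.02 (-0.35 to 0.36). What the replicate numbers stand for was not given, and these values cannot exclude a pairing.

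The surface minus endosomal difference of primary untreated tumors against glands was -1.37 by summed levels per kb and -1.02 to 0.0627 with 1 library left out. Between tumor groups, a move was read against the SD of the 4 tumor groups. By summed levels per kb, recurrent 17-DMAG against primary untreated became 0.71 and stavudine against none in primary tumors 0.59. The former was 0.110 without Tlr3 and 0.132 without replicate 2 of the recurrent 17-DMAG tumors. The latter was 0.163 with Cd14 added and 0.178 without replicate 2 of the primary stavudine tumors. Recurrent against primary under stavudine became -0.0359 by summed levels per kb and 0.0134 with Cd14 added. Stavudine against none in recurrent tumors became -0.156 by summed levels per kb and -0.160 without replicate 2 of the recurrent 17-DMAG tumors. The causes were not tested.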
